A study of Mus musculus with 12 samples.

Results

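LiPS-45 and LiPS-57 are mouse induced pluripotent stem (iPS) cell lines, made of cells returned to a state like that of embryonic stem cells, and both are labelled as competent in tetraploid complementation. In that assay the stem cells are joined to an embryo whose own cells carry a doubled genome and contribute mostly to placenta and yolk sac, so a competent line can form the fetus. The comparison took the 3 arrays of LiPS-45 against the 3 of LiPS-57, which are 6 of the 12 arrays of the series, over every gene measured inside and outside the Dlk1-Dio3 domain. The question was how far lines of the same competence class differ from each other.

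All 4 lines of the series came from C57BL/6J mouse embryonic fibroblasts reprogrammed with 3 factors, which the labels do not name, and were grown in embryonic stem cell medium. The other lines, LiPS-47 and LiPS-50, are labelled as lacking the competence and enter here as levels only. Each line had 3 cultures, called biological repeats, with 1 Affymetrix whole-transcript array each. Each side of the comparison is thus 1 line, and its p-values are set against the variation between cultures, not between lines. The lines can differ for any reason that separates 1 iPS line from another.

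Values are log2(intensity + 1), called log2 levels below; differences are LiPS-45 minus LiPS-57, and the error given as SD is the standard deviation of 3 cultures. The mean correlation of log2 levels was 0.9967 within LiPS-45, 0.9970 within LiPS-57 and 0.9964 between these lines, over 28939 probe sets. The number of arrays limits the precision, and the median standard error (SE) of a difference was 0.0898. Pluripotency markers were bright in both lines: Pou5f1 stood at 11.74 and 11.72, Sox2 at 10.63 and 10.57 and Nanog at 10.60 and 10.55 in LiPS-45 and LiPS-57. In these bulk cultures, fewer cells expressing a gene and less RNA per cell cannot be told apart.

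The Dlk1-Dio3 domain is an imprinted region of mouse chromosome 12. The paternally inherited copy expresses the coding genes Dlk1, Rtl1 and Dio3, whereas the maternally inherited copy expresses the long noncoding RNAs Meg3 (Gtl2), Rian and Mirg together with small nucleolar RNAs (snoRNAs) and a large group of microRNAs. A region between Dlk1 and Meg3 that is methylated on the paternal copy controls this division, and low expression of the maternal RNAs in some mouse iPS lines has made the domain a common check of such lines. RefSeq (GRCm38.p6) places 103 genes from Dlk1 to Dio3. Of these, 48 had a probe set of their own: 3 coding genes, 2 long noncoding RNAs, 3 snoRNAs and 40 of 61 microRNA genes. Mirg had none.

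The microRNAs on which the domain result turns are shown first, as mature sequences of RefSeq (GRCm38.p6), 5′ to 3′, with the seed (bases 2 to 8, which pair with the target) in capitals. All 40 measured microRNA genes matched that table, which lists 76 mature sequences for them. The first 6 sequences belong to genes that were higher in LiPS-45.
miR-380-3p: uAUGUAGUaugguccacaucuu
miR-300-3p: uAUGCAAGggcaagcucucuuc
miR-539-5p: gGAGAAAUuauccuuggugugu
miR-679-5p: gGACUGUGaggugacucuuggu
miR-382-5p: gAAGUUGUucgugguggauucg
miR-127-3p: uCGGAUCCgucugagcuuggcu
miR-381-3p, printed because it is a close relative of miR-300-3p, also belongs to a gene that was higher.
miR-381-3p: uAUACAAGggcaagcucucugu
The genes of the last pair are domain members with differences near 0.
miR-666-5p: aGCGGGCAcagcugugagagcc
miR-431-5p: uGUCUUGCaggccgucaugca
All lie on the plus strand of chromosome 12, for example miR-127-3p at chr12:109592888-109592909, miR-679-5p at chr12:109715587-109715608 and miR-539-5p at chr12:109728136-109728157. The hairpin of Mir380 lies at chr12:109711803-109711863, within the dense stretch that runs from the Mir379 hairpin at chr12:109709060-109709125 to that of Mir369 at chr12:109743418-109743496.

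Counted from the 5′ end, miR-300-3p and miR-381-3p share 19 of 22 positions, the differences from the first to the second being G4A, U21G and C22U, so their seeds differ at 1 base. The 76 sequences hold 74 distinct seeds, and only 2 seeds occur in more than 1 of them. One is shared by the neighbours Mir379 and Mir411, which shows in these 3′-arm sequences.
miR-379-3p: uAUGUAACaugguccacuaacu
miR-411-3p: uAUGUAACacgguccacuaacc
The genes that were higher therefore do not form 1 seed family. The mature microRNAs themselves were not measured: a probe set at a microRNA gene does not separate the mature form from the longer transcript, and neighbouring or overlapping RNAs such as Rian and the small RNA genes inside it cannot be told apart by these values.

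Across the array LiPS-45 and LiPS-57 were close. By limma with Benjamini-Hochberg adjustment, 77 of 28939 probe sets passed an adjusted p of 0.05 (0.266%), 62 of them higher (0.214%) and 15 lower (0.0518%) in LiPS-45. At the level of genes, each represented by its brightest probe set, 50 of 19938 passed (0.251%): 38 were higher (0.191%) and 12 lower (0.0602%). The quartiles of all probe set differences were -0.07 and 0.07, and the smallest difference that passed was 0.30. All 31 differences of at least 2-fold were higher in LiPS-45, and the largest lower one, -0.995, fell just short of that size. Of the 31, 15 were domain members, 2 were other genes, and the rest were probe sets that list no single gene. Of the 50 genes that passed, 23 lay in the Dlk1-Dio3 domain. Without 1 culture of either line the count of 77 fell to between 41 and 49, the lowest without LiPS-57 replicate 1, and with these lines fitted alone it was 49.

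**Figure D1:**
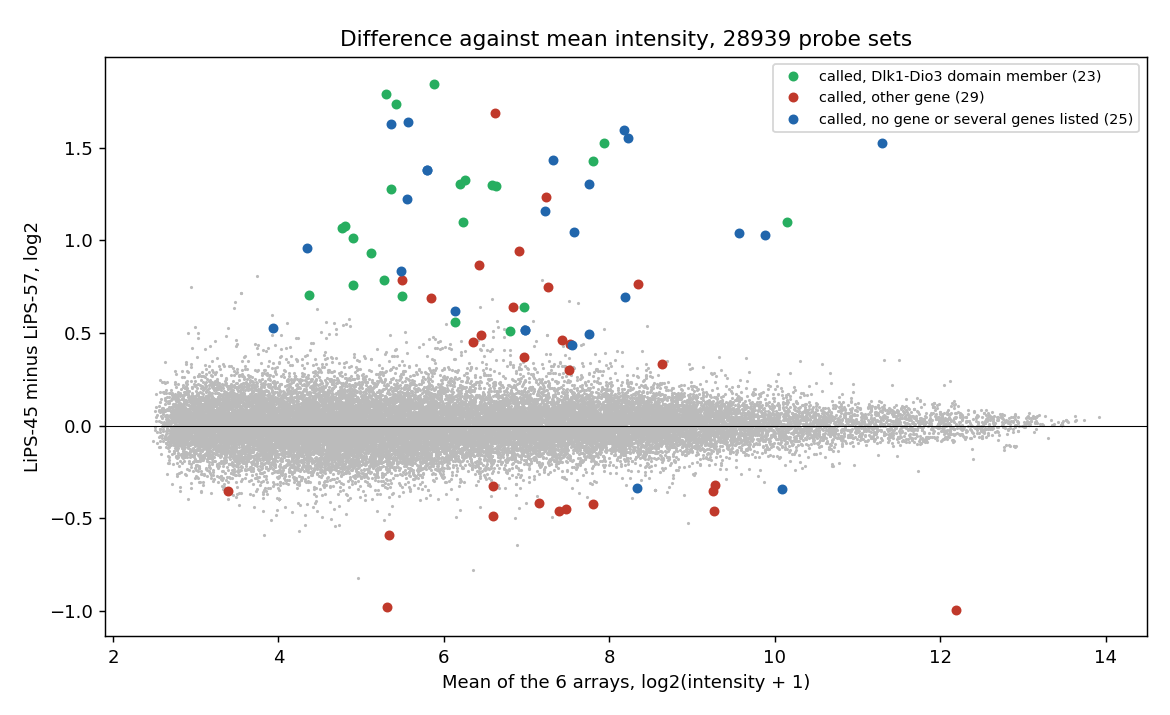
Difference between LiPS-45 and LiPS-57 (log2, vertical) against the mean of the 6 arrays (log2(intensity + 1), horizontal) for 28939 probe sets in grey, with those that passed an adjusted p of 0.05 in colour. Green points are the 23 domain members, all above 0; the 15 lower probe sets reach -0.995, and most points lie near 0 at every intensity.

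Within the domain 23 of 48 measured members were higher in LiPS-45 and 0 were lower, and the median difference was 0.63 against 0.00 over all genes. In 40 of the 48 the 3 LiPS-45 arrays all lay above the 3 LiPS-57 arrays, and in 0 all lay below. Over all genes such separation occurred in 14.5%, in 6.97% with LiPS-45 above and 7.55% with it below. By role, both long noncoding RNAs, 2 of 3 snoRNAs and 19 of 40 microRNA genes were higher, and 0 of the 3 paternally expressed coding genes passed in either direction; whether the roles differ was not tested.

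Meg3, the long noncoding RNA at the start of the maternally expressed unit, read 10.73, 10.75 and 10.60 in the LiPS-45 cultures and 9.55, 9.66 and 9.58 in those of LiPS-57. The lines did not overlap, and the cultures of each lay close together. The difference was 1.10 (SE 0.0786), or 2.14-fold, with a limma adjusted p of 3.85e-05. Rian, the long noncoding RNA that hosts a snoRNA cluster, read 7.29, 7.26 and 7.14 against 6.22, 5.86 and 5.72. Again every LiPS-45 culture was above every LiPS-57 culture, with more spread in LiPS-57. Rian differed by 1.30 (SE 0.126), or 2.46-fold (limma adjusted p = 3.52e-04). Both RNAs kept their calls in the 9 other settings run and without each of the 6 cultures.

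The snoRNA genes of the Rian region, which belong to a class that guides chemical modification of other RNAs, followed the same order. DQ267102 read 8.67, 8.50 and 8.40 in LiPS-45 and 7.39, 6.90 and 6.98 in LiPS-57, a difference of 1.43 (2.69-fold, limma adjusted p = 1.75e-04). DQ267101 was dimmer, at 6.07, 6.06 and 5.87 against 4.82, 4.80 and 4.54, and differed by 1.28 (2.42-fold, limma adjusted p = 1.75e-04). In both genes the cultures of the lines were separated by about 1 log2 unit. AF357341 read 4.53 to 4.97 against 4.07 to 4.27; its difference of 0.63 did not pass (limma adjusted p = 0.0655), although its cultures did not overlap either. Of 51 snoRNA genes measured elsewhere in the genome, 35 were above 0, 0 passed and the median difference was 0.04. A count of 0 here is near the share of all genes outside the domain that passed, 0.136%.

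**Figure D2:**
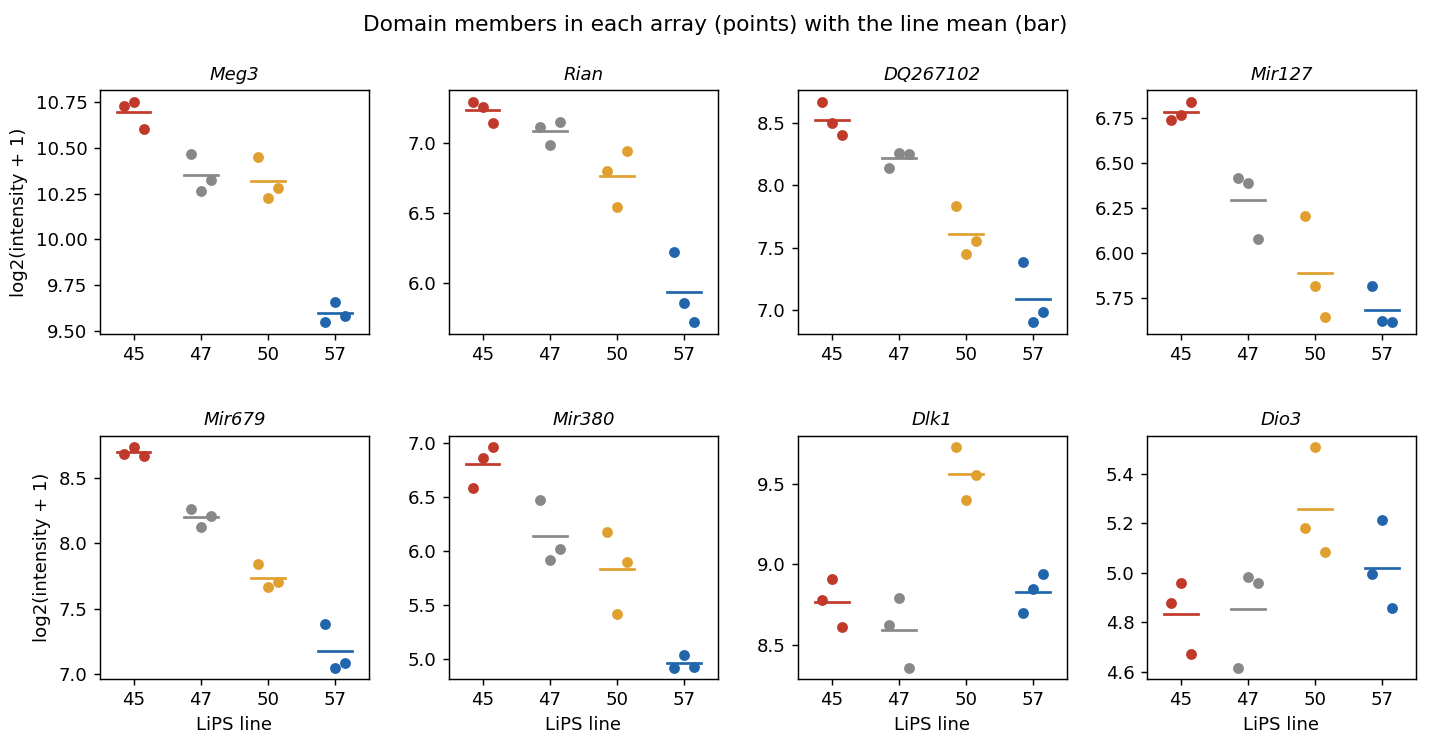
Log2(intensity + 1) of 8 domain members in each of the 12 arrays (points, 3 per line) with the line mean (bar); each panel has its own vertical range. LiPS-45 is above LiPS-57 without overlap for Meg3, Rian, DQ267102, Mir127, Mir679 and Mir380, and the lines overlap for Dlk1 and Dio3.

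The microRNA genes fell into groups by position. From Mir379 to Mir369, the large cluster at Mirg, 17 of 30 genes were higher, with a median difference of 0.68 and a range from -0.09 (Mir666) to 1.85 (Mir380). Before Mir379, 2 of 10 were higher, Mir127 and Mir370, with a median of 0.38 and a range from 0.02 (Mir431) to 1.10 (Mir127). Whether these groups differ was not tested. By comparison, 0 of 257 microRNA genes outside the domain passed, and their median was 0.00.

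Mir380 showed the largest difference of any probe set on the array: it read 6.58, 6.86 and 6.97 in LiPS-45 and 4.92, 5.03 and 4.92 in LiPS-57, 3.60-fold apart (1.85, SE 0.181, limma adjusted p = 3.72e-04). Mir300 read 6.30, 6.11 and 6.17 against 4.31, 4.35 and 4.56, 3.46-fold apart (limma adjusted p = 4.91e-04). Mir539 read 6.18, 6.40 and 6.30 against 4.32, 4.67 and 4.67, 3.34-fold apart (limma adjusted p = 4.07e-05). In these genes the LiPS-57 cultures lay in the dim part of the array, under 5.21, which is the 40th percentile of mean levels over all probe sets.

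Brighter members gave the same direction. Mir679 read 8.69, 8.74 and 8.67 in LiPS-45 and 7.38, 7.05 and 7.08 in LiPS-57, 2.88-fold apart (limma adjusted p = 9.98e-06). Mir382 read 6.93, 6.84 and 6.99 against 5.79, 5.38 and 5.62, 2.50-fold apart (limma adjusted p = 9.72e-05). Mir329 read 7.24, 7.29 and 7.31 against 5.98, 6.04 and 5.93, with the tightest cultures of these 3, and differed by 2.46-fold (limma adjusted p = 1.39e-05). None of the 3 overlapped between the lines. Mir487b differed by 2.47-fold (limma adjusted p = 6.05e-05) and Mir127 by 2.14-fold (limma adjusted p = 0.00219). Mir127, which lies antisense to Rtl1, read 6.74, 6.77 and 6.84 against 5.82, 5.62 and 5.61, again with no overlap. Mir381, whose mature 3′-arm sequence is so close to that of Mir300, differed by 2.11-fold, from 5.35 ± 0.0934 to 4.27 ± 0.299 (SD, n = 3 each, limma adjusted p = 0.0164).

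The remaining microRNA genes that passed differed by about 1 log2 unit or less. Mir377 and Mir411 differed by 1.07 and 1.01, Mir543 by 0.93, Mir370 by 0.79, Mir496a by 0.76, Mir541 by 0.71, Mir323 by 0.70, Mir134 by 0.64, Mir485 by 0.56 and Mir668 by 0.51. Several of these calls did not hold with 1 culture fewer, and that of Mir541 was lost whichever culture was left out. Without LiPS-45 replicate 3 or without LiPS-57 replicate 1, 17 domain members passed in place of 23, and without any other culture of these lines 18 or 19 did. Mir668, Mir485, Mir323, Mir541, Mir496a, Mir370 and Mir381 each lost the call without at least 1 culture, with limma adjusted p-values of up to 0.204 (Mir323). The other 16 members kept theirs in every setting run.

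Of the 25 members that did not pass, 22 had differences above 0, and many were dim. Among the 45 members other than the coding genes, 13 had a LiPS-45 mean below 5.21, of which 1 passed, and 32 had a mean above it, of which 22 passed. Mir376c, Mir376b and Mir376a, for instance, stood between 2.64 and 3.11 in the cultures of both lines and differed by 0.29, 0.13 and 0.26. A few members above 5.21 were close between the lines all the same. Mir666 read 7.11, 7.17 and 6.97 in LiPS-45 and 7.01, 7.14 and 7.37 in LiPS-57, with full overlap (difference -0.09, limma adjusted p = 0.901). Mir431 read 6.09, 6.02 and 5.82 against 5.90, 5.97 and 6.01 (difference 0.02, limma adjusted p = 0.983). Both were above 5.21 in every culture of these lines. The Mir431 means, 5.98 and 5.96, were only a little above the median level of all probe sets, 5.84 in each line. Over the 45 members, the LiPS-45 level and the difference had a Spearman correlation of 0.356; points share arrays and, in part, a transcript, so this is a description.

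**Figure D3:**
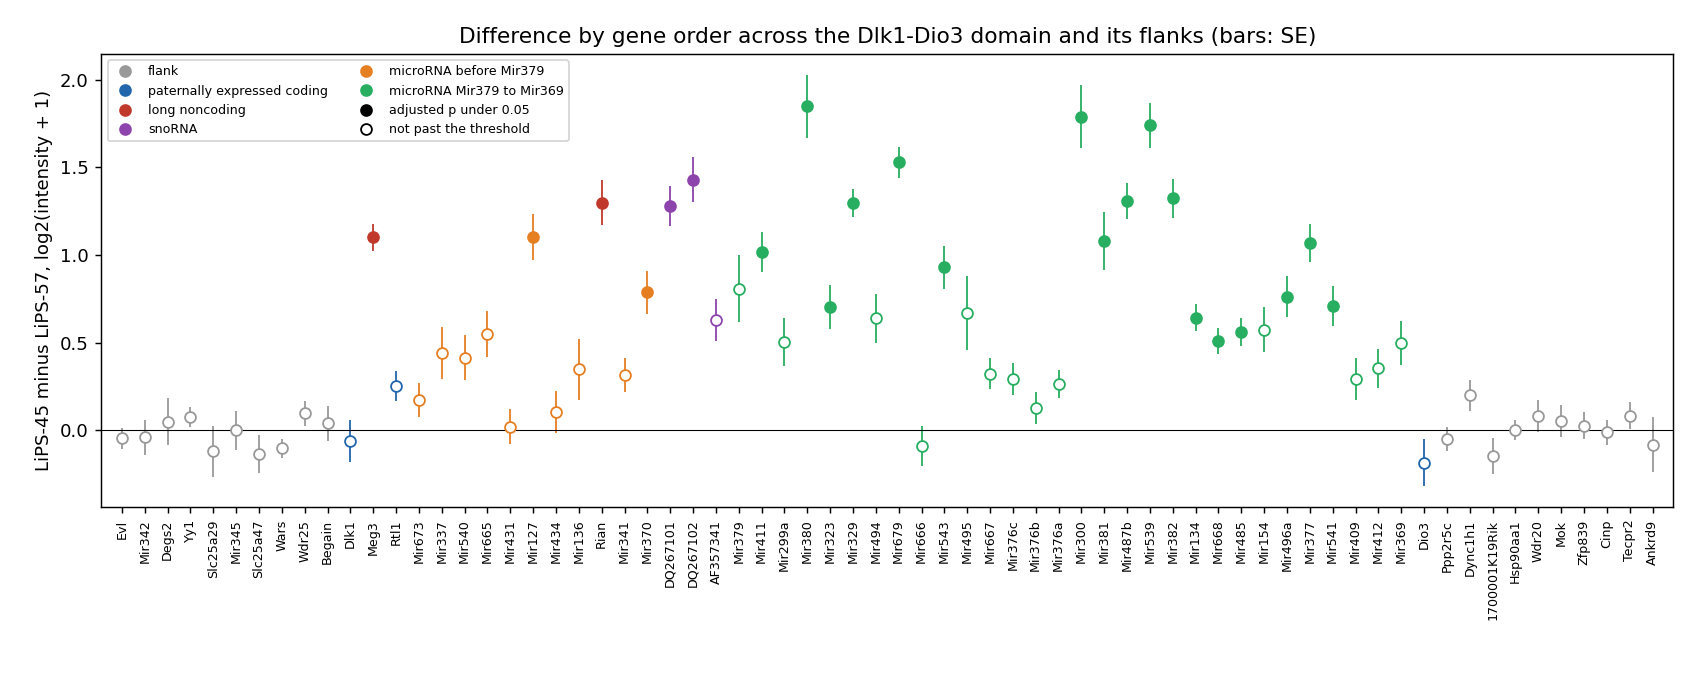
Difference LiPS-45 minus LiPS-57 (log2, vertical; bars are SE) for the 48 measured domain members and 10 measured genes on each side, in gene order. Filled points passed an adjusted p of 0.05. Flanking genes stay between -0.15 and 0.20, the maternally expressed members rise to 1.85 (Mir380), and Dlk1, Rtl1 and Dio3 are unfilled.

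The paternally expressed genes were a contrast. Dlk1, which encodes a transmembrane ligand related to Notch ligands, read 8.78, 8.91 and 8.62 in LiPS-45 and 8.70, 8.85 and 8.94 in LiPS-57 (difference -0.06, SE 0.120, limma adjusted p = 0.952). Dio3, which encodes the deiodinase that inactivates thyroid hormone, was dim in both, at 4.88, 4.96 and 4.67 against 4.99, 5.21 and 4.86 (difference -0.19, limma adjusted p = 0.806). The cultures of the lines overlapped for both genes. Rtl1, a retrotransposon-derived gene needed in the placenta, read 5.92, 6.12 and 5.82 against 5.67, 5.80 and 5.63. Its cultures were separated, narrowly, by a difference of 0.25 that did not pass (SE 0.0870, limma adjusted p = 0.483). Rtl1 and the microRNA genes on its opposite strand share sequence, and how far the probe sets keep the strands apart was not tested.

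Beyond the ends of the domain no measured neighbour passed. Of the 10 measured genes before Dlk1 and the 10 after Dio3, 0 passed (against 0.136% of all genes outside the domain), 10 were above and 10 below 0, and the median was 0.00. Begain, the last measured gene before Dlk1, read 5.72, 5.74 and 5.53 against 5.70, 5.59 and 5.59 (limma adjusted p = 0.962). The other 605 genes of chromosome 12 had a median of 0.00, and 1 of them, Rapgef5, passed as higher.

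Probe sets without a single gene name were described apart from the members. The 3 probe sets that list several domain genes were all higher, by 0.62, 1.60 and 1.63. A further 9 probe sets list no gene but have identifiers between those of Mir370 and Mir379. Identifiers of annotated chromosome 12 probe sets follow gene order in 97.3% of 712 steps; whether these 9 lie in that interval was not tested, and they are left unnamed. Of these, 8 were higher, with a median over all 9 of 1.38 and a range from 0.28 to 1.64. A pair of them carried identical values in every array and so counts as 1 measurement. None of these probe sets is counted among the 48 members.

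LiPS-47 and LiPS-50 lay between the competent lines. Over the 45 noncoding members, the median log2 level was 6.09, 6.06 and 5.87 in the LiPS-45 cultures and 4.97, 4.96 and 4.84 in those of LiPS-57. It was 5.64, 5.60 and 5.66 in LiPS-47 and 5.60, 5.39 and 5.31 in LiPS-50. Every culture of the lines without competence was thus above all LiPS-57 cultures and below all LiPS-45 cultures by this measure. In 40 of the 45 members the mean of LiPS-45 was above, and that of LiPS-57 below, both other lines. LiPS-57 had the lowest mean in 43 members and LiPS-45 the highest in 41. For Meg3 the LiPS-47 mean was 10.35 ± 0.106 and the LiPS-50 mean 10.32 ± 0.118 (SD, n = 3 each). The highest and the lowest levels of these RNAs were therefore both found in lines labelled competent.

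Dlk1 did not follow that order, with its highest mean, 9.56 ± 0.164 (SD, n = 3), in LiPS-50. Fibroblast genes were also highest there: over the 28 measured members of a list of fibroblast and feeder cell genes, the median level was 9.48 in LiPS-50, 8.60 in LiPS-47, 8.72 in LiPS-45 and 8.76 in LiPS-57. Between LiPS-45 and LiPS-57, 0 of the 28 passed (against 0.136% of all genes outside the domain), 15 were above and 13 below 0, and the median difference was 0.01. Col1a1, Col1a2 and Thy1, members of that list, differed by 0.04, 0.07 and -0.04. The list thus held no difference between these lines of the size seen in the domain. Whether fibroblasts or feeder cells contributed to the domain values was not tested.

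Outside the domain 27 of 19890 genes passed (0.136%), 15 higher (0.0754%) and 12 lower (0.0603%) in LiPS-45. More of these genes had all LiPS-45 cultures separated from all LiPS-57 cultures than passed: 6.78% upwards and 7.57% downwards. Inside the domain such separation was found in 40 of 48 members. The count of 15 was 7 without LiPS-45 replicate 1, 5 without LiPS-45 replicate 3 and 6 without LiPS-45 replicate 2. Without LiPS-57 replicates 1, 2 and 3 it was 4, 6 and 6. The count of 12 fell to 4, 3 and 3 without LiPS-45 replicates 1, 2 and 3, and to 1, 2 and 3 without those of LiPS-57. Only Eif2s3y, Uty, Klf12 and Pop4 among the higher genes and Usp26 among the lower ones passed in every setting run.

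The largest differences outside the domain were in Y-linked genes. Eif2s3y, which encodes a subunit of a translation initiation factor, read 7.24, 7.50 and 7.64 in LiPS-45 and 5.65, 6.04 and 5.63 in LiPS-57, 3.22-fold apart (1.69, SE 0.126, limma adjusted p = 4.37e-05). Uty, a Y-linked relative of the histone demethylase gene Kdm6a, read 7.89, 7.67 and 8.0 against 6.63, 6.66 and 6.59, 2.35-fold apart (limma adjusted p = 9.63e-04). Neither gene overlapped between the lines. Their order over the 4 lines differed: Eif2s3y was lowest in LiPS-57, its mean being 6.46 in LiPS-47 and 6.34 in LiPS-50, whereas Uty was lowest in LiPS-50 (mean 5.25) and as high in LiPS-47 (mean 7.76) as in LiPS-45 (mean 7.86).

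The other 6 measured genes of the Y-linked list did not pass, and the median over the 8 was 0.11, with 2 higher. Kdm5d, a Y-linked histone demethylase gene, stood between 4.08 and 4.32 in all 6 cultures, in the dim part of the array. Ddx3y had no probe set of its own. Zfy2, Uba1y, Usp9y, Sry and Zfy1 differed by -0.23, 0.19, 0.10, 0.12 and 0.07.

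X-linked genes as a whole were close between the lines: 404 of 742 were above 0, the median was 0.01, and 1 was higher and 1 lower. The higher one was Mid1, a ubiquitin ligase gene near the pseudoautosomal boundary, at 7.73, 7.56 and 7.59 in LiPS-45 and 6.86, 6.84 and 6.94 in LiPS-57. These cultures were clearly separated, by 1.68-fold (limma adjusted p = 0.0114), but the call was lost without LiPS-45 replicates 1 or 3 or LiPS-57 replicates 1 or 2 (up to 0.0710). Usp26, a testis-expressed ubiquitin protease gene, was lower, at 4.77, 4.81 and 4.90 against 5.81, 5.79 and 5.80 (-0.98, limma adjusted p = 3.12e-05). Its LiPS-57 cultures lay closest together of these genes (SD 0.0125), and those of LiPS-45 lay in the dim part of the array. Xist, the RNA that coats an inactive X chromosome, read 6.58, 6.82 and 6.53 in LiPS-45 and 6.50, 6.58 and 6.30 in LiPS-57, with overlap (limma adjusted p = 0.820).

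Rhox9 and Rhox6, X-linked homeobox genes of the reproductive tract and trophoblast, stood next in size among X-linked reproductive genes without passing. Rhox9 read 5.97, 6.01 and 5.91 in LiPS-45 and 6.75, 7.02 and 6.45 in LiPS-57 (difference -0.78, limma adjusted p = 0.0595). Its cultures did not overlap, but those of LiPS-57 were spread over more than the width of the gap. Rhox6 differed by -0.49 (limma adjusted p = 0.235). Of the 9 measured genes of that list, Usp26 alone passed, and the median was -0.01.

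Among autosomal genes, Klf12, which encodes a transcription factor that represses its targets, read 7.35, 7.42 and 7.39 in LiPS-45 and 6.51, 6.51 and 6.30 in LiPS-57, 1.92-fold apart (limma adjusted p = 0.00104). It was high in LiPS-45 alone, since the LiPS-47 mean was 6.55 and the LiPS-50 mean 6.25. Pop4, which encodes a shared subunit of the RNA-processing enzymes RNase P and RNase MRP, read 8.61, 8.74 and 8.83 against 7.87, 8.05 and 7.96, 1.70-fold apart (limma adjusted p = 6.77e-04). LiPS-50 read like LiPS-45 for Pop4, at 8.67 ± 0.0224, and LiPS-47 like LiPS-57, at 7.98 ± 0.128 (SD, n = 3 each). Mid1 showed the same split.

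**Figure D4:**
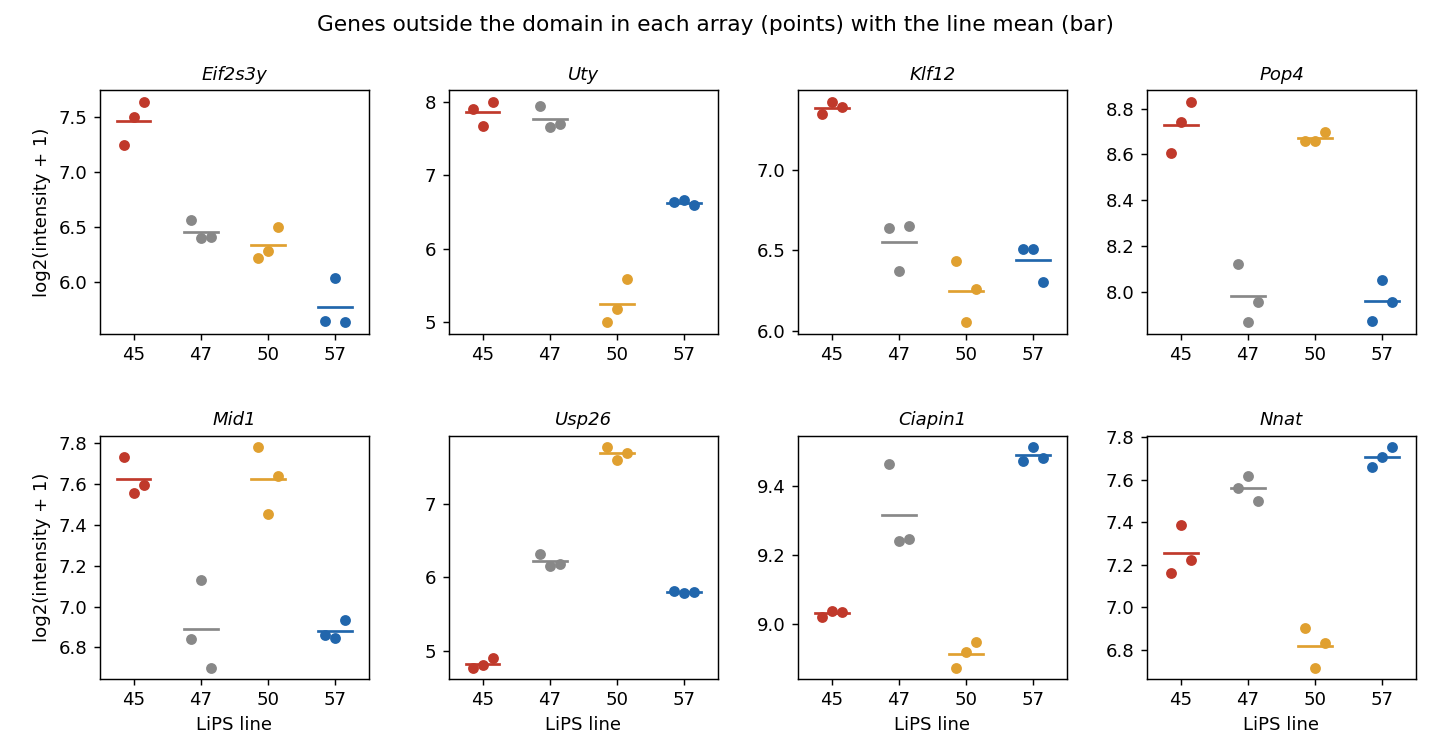
Log2(intensity + 1) of 8 genes outside the domain in each of the 12 arrays (points, 3 per line) with the line mean (bar); each panel has its own vertical range. All 8 separate LiPS-45 from LiPS-57; Klf12 is high in LiPS-45 alone, while for Pop4 and Mid1 the LiPS-50 points lie with those of LiPS-45.

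A few further probe sets, not all of them with that split, were chosen after their values were seen. Probe set 10608711, which has no gene in the array annotation, had the smallest adjusted p of the comparison. It read 12.09, 12.04 and 12.03 in LiPS-45 and 10.54, 10.55 and 10.50 in LiPS-57, 2.88-fold apart (limma adjusted p = 6.33e-08). LiPS-50, at 11.99, 11.91 and 11.89, stood near LiPS-45, and LiPS-47, at 10.81, 10.78 and 10.77, near LiPS-57. One of the 3 probe sets of Hspa8, a constitutive heat shock chaperone gene, read 11.72, 11.55 and 11.82 against 12.61, 12.79 and 12.68 (difference -0.995, or 1.99-fold, limma adjusted p = 3.41e-04). Its LiPS-50 mean was 11.54 and its LiPS-47 mean 12.65. The other probe sets of Hspa8 differed by 0.01 and 0.02, and the brightest of them represents Hspa8 in the counts of genes. The probe set that passed has an identifier near that of Thy1, which like Hspa8 is on chromosome 9. Identifiers of the others lie among those of genes on chromosomes 10 and 5. Whether all of these read Hspa8 itself was not tested. For Pdia4, a protein disulfide isomerase gene, 1 of the 2 probe sets differed by 0.87 (limma adjusted p = 0.00478) and the brighter one by 0.03. The first of these did not show the split. Its LiPS-50 mean of 6.29 and LiPS-47 mean of 6.07 were both nearer to LiPS-57 (5.99) than to LiPS-45 (6.86). Over all 77 probe sets that passed, the LiPS-47 mean was nearer to LiPS-45 in 43 and the LiPS-50 mean in 28.

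The remaining genes that were higher outside the domain had smaller or less steady differences, and each lost its call in some setting or without some culture. Accsl differed by 0.79, and its LiPS-45 cultures, at 6.10, 5.56 and 6.02, were spread widely. Cd59a, which encodes an inhibitor of complement, differed by 0.69, and Cyp26a1, which encodes an enzyme that breaks down retinoic acid, by 0.64. Shisa6, Rapgef5, Fut10, Pttg1, Cnpy1, Cdca3 and Gabbr1 differed by between 0.49 and 0.30. Pttg1 encodes securin, the inhibitor of separase, and read 7.71, 7.77 and 7.76 in LiPS-45 and 7.28, 7.32 and 7.32 in LiPS-57. Its cultures were close within each line (limma adjusted p = 0.00955), and the call was lost without LiPS-45 replicate 2, LiPS-45 replicate 3 or LiPS-57 replicate 1 (up to 0.0607).

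Lower in LiPS-45 besides Usp26 were 11 genes with differences from -0.59 to -0.32. Gm11517, a pseudogene, differed by -0.59 and Pianp by -0.49. Ciapin1, which acts in the assembly of iron-sulfur clusters, read 9.02, 9.04 and 9.03 in LiPS-45 and 9.47, 9.52 and 9.48 in LiPS-57, a difference of -0.46 (limma adjusted p = 0.00955). The gap was many times the spread within either line, but without any culture other than LiPS-45 replicate 2 the adjusted p rose above 0.05, to at most 0.0641. Dnajc6, which encodes the clathrin uncoating factor auxilin, differed by -0.46, Sft2d2 by -0.42, Lgals9 (a galectin) by -0.41, Castor1 (an arginine sensor of mTORC1) by -0.35, A430010J10Rik by -0.35, Foxj2 by -0.32 and Cds2 (an enzyme of phosphatidylinositol synthesis) by -0.32.

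Imprinted genes measured outside the domain did not follow it. Of 25 measured maternally expressed genes 0 passed, with a median of -0.01, and of 22 paternally expressed genes 1 was lower and 0 higher, with a median of -0.05. Over all genes outside the domain 0.136% passed. The imprinted gene that passed was Nnat, a small membrane protein gene on chromosome 2, at 7.16, 7.39 and 7.22 in LiPS-45 and 7.66, 7.71 and 7.76 in LiPS-57 (difference -0.45, limma adjusted p = 0.0269). Its cultures did not overlap, but the call was lost without any culture except LiPS-45 replicate 2 (up to 0.156). The next genes of the paternal list were Mcts2 (difference -0.36, limma adjusted p = 0.0586), Zdbf2 (-0.52, 0.0818) and Peg3 (0.24, 0.401). H13, the maternally expressed gene within which Mcts2 lies, differed by 0.31 (limma adjusted p = 0.262). Cultures were separated upwards in 2 and downwards in 5 of the maternal genes (28%), against 14.5% of all genes. Among the paternal genes these counts were also 2 and 5 (31.8%). The lists held 32 maternal and 27 paternal genes, and those not measured included H19, Ube3a, Gnas and Snrpn.

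Lists of cell state and pathway genes held 0 members that passed in either direction, and their medians lay between -0.07 and 0.09. Only 0.251% of all genes passed, so a count of 0 in lists this short does not set their members apart from other genes. Some lists nevertheless held many genes whose cultures were separated between the lines by small differences, in both directions. Of the 14 naive pluripotency genes 3 were separated upwards and 5 downwards (57.1%, against 14.5% of all genes), of the 14 FGF and MAP kinase feedback genes 2 and 4 (42.9%), and of the 17 genes of glycolysis and hypoxia 6 and 1 (41.2%). Among the germ line genes it was 5 and 3 of 21 (38.1%), and among the core pluripotency genes 0 and 4 of 15 (26.7%). The median difference was -0.04 for 15 core pluripotency genes, -0.02 for 14 naive pluripotency genes and 0.05 for 18 primed epiblast genes. It was 0.01 for 12 primitive streak, 0.03 for 17 endoderm, -0.01 for 18 trophectoderm, -0.05 for 11 neural and 0.06 for 21 germ line genes. The reprogramming factors Klf4 and Myc differed by 0.07 and -0.05, and Dppa3, which protects imprints in the early embryo, by -0.31 (limma adjusted p = 0.234). Tcl1, a coactivator of Akt signalling, came nearest to the threshold among pluripotency genes, at 6.70, 6.74 and 6.71 in LiPS-45 and 7.15, 6.93 and 7.01 in LiPS-57 (difference -0.31, limma adjusted p = 0.104).

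Genes that act on imprinting marks or on microRNAs held 0 that passed as well, which in short lists is near the 0.251% of all genes. The median was 0.05 for 14 genes of DNA methylation and demethylation, 0.00 for 15 Polycomb genes and 0.02 for 12 genes of microRNA processing. In the first of these lists 3 genes were separated upwards and 2 downwards (35.7%, against 14.5% of all genes). In the second it was 1 and 2 of 15 (20%), and in the third 3 and 2 (41.7%). Dnmt3l, a cofactor of DNA methyltransferases, had the smallest p of the first list (difference 0.23, limma adjusted p = 0.178). Dicer1 and Drosha, the nucleases that cut microRNA precursors, differed by 0.15 and -0.04. Medians of the signalling lists were 0.09 for 11 Wnt targets, 0.01 for 13 genes of Nodal and BMP signalling and -0.03 for 14 feedback genes of FGF and MAP kinase signalling. For metabolism and stress they were 0.04 for 13 p53 targets, -0.04 for 18 ATF4 targets, -0.01 for 16 cholesterol synthesis genes, 0.03 for 17 genes of glycolysis and hypoxia, -0.02 for 18 genes of oxidative phosphorylation, -0.02 for 20 cell cycle genes and -0.07 for 14 interferon and antigen presentation genes. Cth, which makes cysteine, was the nearest to the threshold of these (0.28, limma adjusted p = 0.0894). Of the 9 measured genes of X inactivation and escape, 1 (Mid1) was higher and the median was 0.09.

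Chromosome 8 carried a small shift spread over many genes. Of 961 measured genes on it, 68.3% were below 0, with a median of -0.05, whereas the medians of the other autosomes lay between -0.01 (chromosome 11) and 0.01 (chromosome 12). In 188 of the genes all LiPS-45 cultures lay below all LiPS-57 cultures and in 32 above. Separation in either direction thus occurred in 22.9% of them. Over all genes it occurred in 14.5%, in 7.55% with LiPS-45 below and 6.97% with it above. At an unadjusted p under 0.05 by limma the chromosome 8 counts were 119 lower and 16 higher, and 2318 of all 28939 probe sets lay under that limit. With adjustment 1 gene was lower, Ciapin1, and 1 higher, Fut10. The shift was larger among bright genes: of the 267 with a mean log2 level of 8 or more, a limit chosen after the data were seen, 86.9% were below 0 with a median of -0.08, and 109 were separated as lower against 2 as higher. Of the bright genes on each other autosome, between 32.4% (chromosome 18) and 52.7% (chromosome 19) were below 0. Their medians lay between -0.0046 (chromosome 15) and 0.0281 (chromosome 1). The most separated as lower on any of these was 40 of 418, on chromosome 11, with 45 as higher.

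The shift was found along the whole chromosome, and relative to the other lines it was larger in LiPS-57, upwards, than in LiPS-45, downwards. In 8 consecutive parts of the chromosome, of 120 or 121 genes each, every median was below 0, from -0.07 to -0.02. Relative to the other autosomes, the bright chromosome 8 genes had a median deviation of 0.0586, 0.0525 and 0.0583 in the LiPS-57 cultures. In LiPS-45 the deviations were -0.0366, -0.0227 and -0.0468, and in the 6 cultures of LiPS-47 and LiPS-50 they lay between -0.0246 and 0.0029. All 3 LiPS-57 cultures were therefore above the 9 others, and 2 of the 3 LiPS-45 cultures were below all of LiPS-47 and LiPS-50. Over all 961 genes the LiPS-57 cultures, at 0.0271, 0.0347 and 0.0363, were again above the 9 others. Those of LiPS-45 were at -0.0136, -0.0069 and -0.0227, and only the last was below all of LiPS-47 and LiPS-50. The LiPS-47 and LiPS-50 cultures lay between -0.0171 and -0.0011 by that measure. The median of chromosome 8 stayed below 0 in every setting run, between -0.06 and -0.04.

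**Figure D5:**
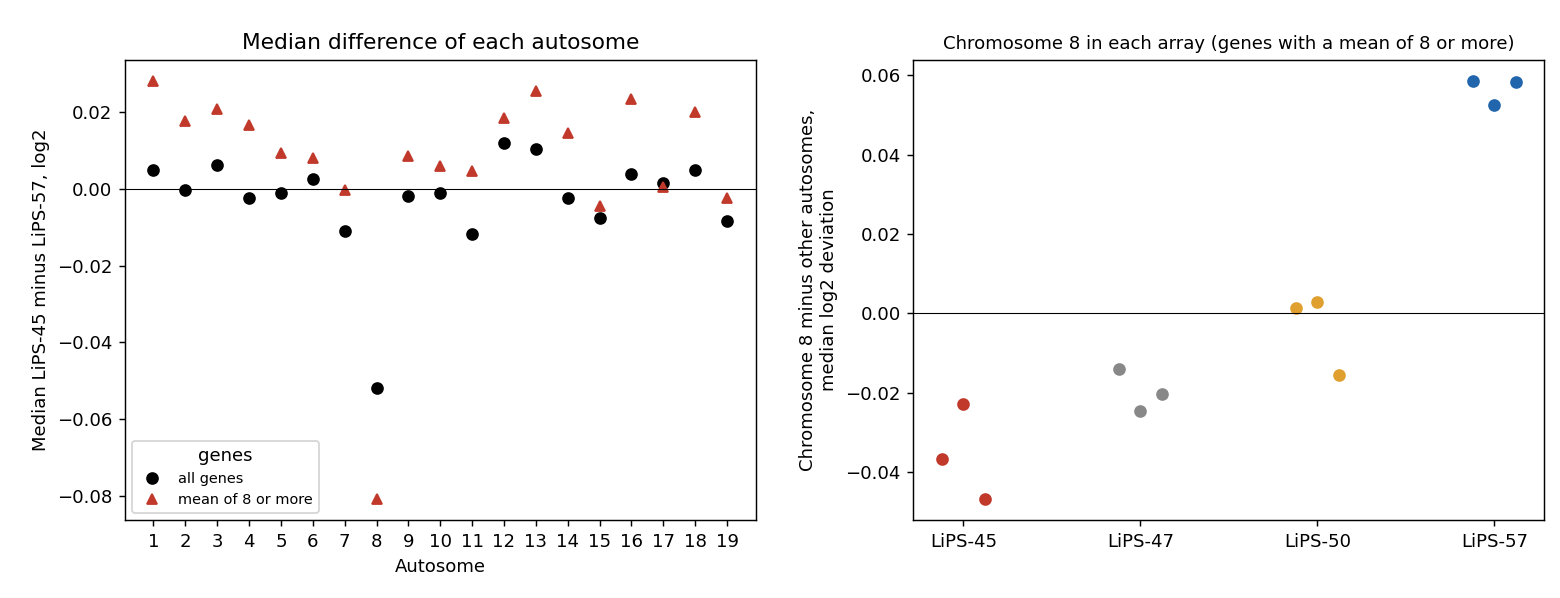
Left, median difference LiPS-45 minus LiPS-57 (log2) of each autosome for all genes (circles) and genes with a mean of 8 or more (triangles). Right, the median log2 deviation of the 267 bright chromosome 8 genes from the other autosomes in each array; chromosome 8 is the lowest autosome on the left, at -0.05 and -0.08, and LiPS-57 is above the 9 other arrays on the right.

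In windows of 25 consecutive measured genes, the highest median of the genome lay within the domain, from Rian to Mir539 (0.81, with 24 genes above 0). Among the windows without a domain gene the highest median was 0.09, on chromosome 2 from Cd44 to Prrg4. The lowest was -0.12, on chromosome 8 from Bbs2 to Adgrg1, with 4 genes above 0. No window of 25 genes without a domain gene therefore approached the size of the domain's difference. Windows of other lengths were not scanned.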

How the data were processed

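RNA of 12 cultures was measured on Affymetrix arrays, and the deposited table gives 1 intensity per probe set and array on a linear scale. The submitters' processing notes name GCOS 1.4; the sources used here do not give the background correction, summarisation and normalization. Quartiles of log2 values differed by at most 0.112 over the arrays, and values were used as deposited, as log2(value + 1). Of 35556 probe sets, 6617 numbered below the lowest annotated one were taken as controls and left out, and 5 of them pass the threshold when included. Of the 28939 tested, 21789 list 1 gene, 1621 several and 5529 none; a gene is represented by its brightest probe set.

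Genes were matched to RefSeq (GRCm38.p6), 19856 by gene ID and 63 by symbol, while 19 kept the array's name. The fit of 4 line means over 12 arrays used limma 3.58.1 in R 4.3.3 (lmFit, eBayes, two-sided, 8 residual and 4.06 prior degrees of freedom, Benjamini-Hochberg over all tested probe sets, threshold 0.05). Lists are given by counts and medians with no set test. Named genes were any that passed, with full statistics for the largest, some domain, pluripotency and sex-linked genes, and up to 4 members of a list with the smallest p. Members, lists and tests were chosen with earlier results of these data known, and the fit was tested on simulated data. Alternatives were the replicate block, array median centring, quantile normalization, other pseudocounts, removal of dim probe sets, the controls included, both lines alone, an intensity trend and each culture left out. The chromosome 8 values were added after seeing the data. At most 0.746% of values were identical between any 2 arrays.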

Additional observations from a re-analysis of the deposited data

How the results depend on the processing

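The domain result moved little: 17 to 25 members were higher and 0 lower in every setting run, and the median of 0.63 ranged from 0.53 to 0.65, except for 0.43 with a pseudocount of 16. Counts outside the domain depended on the setting. With LiPS-45 and LiPS-57 fitted alone, 49 probe sets passed in all, 3 of them lower, and 7 genes outside the domain were higher and 2 lower. With the control probe sets included, 6 probe sets were lower, and 8 genes outside were higher and 3 lower. Without dim probe sets 39 were lower, and 24 genes outside were higher and 29 lower. With a pseudocount of 16 these counts were 36, 23 and 25. With an intensity trend 132 probe sets passed, 46 of them lower, and 26 genes outside were higher and 33 lower. Leaving out 1 culture gave 41 to 49 probe sets in all, 39 to 44 higher and 2 to 5 lower, and outside the domain 4 to 7 genes higher and 1 to 4 lower.

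Same-numbered cultures of LiPS-45 and LiPS-57 correlated at -0.0021, 0.0564 and -0.0999 in their deviations from the line means. Differently numbered cultures of these lines correlated at between -0.108 and 0.108. These values gave no sign that the numbers pair the cultures, and whether cultures of different lines shared a batch was not tested. With the replicate block 58 probe sets passed, 49 higher and 9 lower, and 8 genes outside the domain were higher and 7 lower; 56 of the 58 were also among the 77. Of the 77, 38 passed in every setting. Among single genes and probe sets followed through the settings, 2114 values stayed on their side of the threshold, 227 lost and 23 gained the call, and 0 called values changed sign. With quantile normalization the medians of the fibroblast and of the Nodal and BMP lists, near 0, changed sign. Dim values limit what folds can show: 25 of the 45 noncoding domain members lay below 5.21 in LiPS-57.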

Other observations

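A few further probe sets that list no gene stood apart between the lines and were chosen after their values were seen. Probe sets 10375121 and 10375123 were 2.04- and 2.05-fold higher in LiPS-45 (limma adjusted p = 0.00359 and 0.00198). The first read 10.52, 10.31 and 10.36 in LiPS-45 and 9.62, 9.21 and 9.27 in LiPS-57, with LiPS-47 and LiPS-50 between 9.18 and 9.67, so LiPS-45 alone was high. Probe set 10576556 read 8.24, 7.99 and 8.04 against 6.98, 7.05 and 7.11, 2.06-fold apart (limma adjusted p = 0.00459). Probe set 10422022, whose identifier is near that of Klf12, was 1.78-fold higher (limma adjusted p = 0.0207) and, like Klf12, higher in LiPS-45 than in all other lines. The genes behind these probe sets were not identified here.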
